A study of Mus musculus with 90 samples.

Results

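Interferon-stimulated genes are the antiviral and immune genes that cells switch on when interferon binds its receptors. A list of 43 such genes was followed here through 33 single mouse blood cells in which the transcription factor Runx1 was either intact or deleted. The rule takes the listed symbols found among the 35869 genes of the expression table and uses no expression value, though the list was drawn up with earlier results of these data known. The cells began as CD41-positive haematopoietic stem cells sorted from bone marrow, CD41 being a surface integrin that also marks the megakaryocyte lineage. Wild-type (WT) donors carried floxed Runx1 without Cre (MxCre1-/-, RUNX1f/f), and knockout (KO) donors carried the same floxed gene with Cre (MxCre1+/-, RUNX1f/f). Both genotypes received 4 injections of poly(I:C), and the cells were taken 4 weeks later and then cultured for 2 days. After culture, cells that looked like megakaryocytes (MK) and cells that did not (NMK) were picked and sequenced one cell per library, giving 6 WT MK, 9 WT NMK, 5 KO MK and 13 KO NMK libraries. The design asks how loss of Runx1 alters what megakaryocyte-primed stem cells become. The model itself involves this gene list: Cre is driven by the promoter of Mx1, itself an interferon-stimulated gene, and poly(I:C) is a double-stranded RNA mimic that makes animals produce interferon. Because WT donors were injected as well, the injections do not separate the genotypes, and no group without poly(I:C) was analysed here.

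Type I and type III interferons act through receptor-bound kinases to assemble a complex, with Stat2 and Irf9 among its subunits, that binds a promoter sequence called the interferon-stimulated response element (ISRE). Interferon gamma acts on a different sequence, the gamma-activated site (GAS), and is the stronger inducer of the guanylate-binding proteins, the immunity-related GTPases and the immunoproteasome. In haematopoietic stem cells interferon is known to drive cycling, and stem cells are known to keep some interferon-stimulated genes, such as Ifitm3, on without infection.

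The core of an ISRE was searched as TTTCNNTTTC, or GAAANNGAAA on the other strand, and the core of a GAS as TTCNNNGAA, which reads the same on both strands. The windows were RefSeq promoters of build GRCm38.p6, each covering 250 bases before to 50 after a gene's start, and 34 of the 43 genes had one (Usp18, Oas2, Mx1, Mx2, Iigp1, Dhx58, Parp14, Zbp1 and Rtp4 had no entry). The ISRE-type letters were present for 18 of the 34 genes (52.9%), against 3.99% of all 27025 genes with a window. The GAS-type letters were present for 12 of the 34 (35.3%), against 9.55% of all genes with a window. The letters of one pattern can overlap a copy of itself, as in Isg15, and a match describes the sequence without showing that a factor binds it. Stretches for 6 genes are printed 5′ to 3′ on the gene's own strand, with the matched letters in capitals. Rsad2 and Gbp2 are shown because, among genes with a match upstream of the start, they differed most between KO MK and WT MK cells and between WT MK and WT NMK cells, a choice made after their values were seen. Igtp and Irgm2 are shown because they are neighbours with nearly the same promoter. Isg15 and Ifit1 are shown as genes with repeated matches and a low mean (2.56 and 0.04 TPM), again a choice made after their values were seen. Isg15 reached 1 TPM in 7 cells, at up to 35.4 TPM. Repeated ISRE-type matches were also found for Ifitm3, Bst2, Irgm1, Oas1a, Gbp3 and Ifit3, whose means ran from 2240 TPM (Ifitm3) to 0.12 TPM (Ifit3).
Rsad2: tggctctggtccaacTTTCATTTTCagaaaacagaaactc
Gbp2: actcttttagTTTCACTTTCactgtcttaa
Igtp: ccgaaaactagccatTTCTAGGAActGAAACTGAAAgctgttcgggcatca
Irgm2: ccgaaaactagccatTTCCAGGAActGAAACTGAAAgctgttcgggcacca
Isg15: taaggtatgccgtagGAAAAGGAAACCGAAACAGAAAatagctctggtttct
Ifit1: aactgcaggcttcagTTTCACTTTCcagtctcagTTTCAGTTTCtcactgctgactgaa

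In GRCm38 these stretches lie at chr12:26456548-26456587 (Rsad2, minus strand), chr3:142620594-142620623 (Gbp2, plus), chr11:58199496-58199546 (Igtp, plus), chr11:58214887-58214937 (Irgm2, plus), chr4:156200860-156200911 (Isg15, minus) and chr19:34640770-34640828 (Ifit1, plus). All 6 lie upstream of the RefSeq start, but the GENCODE model of Gbp2 begins at 142620602, so most of the Gbp2 stretch is in a first exon there. The GENCODE model of Irgm2 begins at 58199618, so the Irgm2 stretch lies inside that model. In Igtp and Irgm2, 49 of the 51 bases were the same, and each held a GAS-type match just before an ISRE-type match. Isg15 held 3 overlapping ISRE-type matches and Ifit1 held 2 separate ones.

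Values are in TPM, a transcript abundance scaled for gene length and given as a share of each library, so levels can be compared between genes but the number of reads behind a value is unknown. Every library is 1 cell and no label names the animal or culture it came from, so each group counts as 1 sample: SDs describe spread between cells, no test was made, and a difference was counted only when the mean log2(TPM + 1) of 2 groups was 1 or more apart. That scale understates the change of genes near 0. Genes with any signal numbered 14089 to 15252 in WT MK, 11896 to 14487 in KO MK, 5475 to 11715 in WT NMK and 3011 to 10987 in KO NMK cells, so detection moves with the MK label, and its part in the results was not tested. KO NMK cells B1-1b and B1-2a had low housekeeping expression (a mean log2(TPM + 1) over 15 genes of 5.53 and 1.82, against more than 9 in every other library). KO MK cells B1-4 and 2 went against their label, with 65.8 and 213.7 TPM of Pf4, the platelet chemokine that marks megakaryocytes, whereas the remaining 3 KO MK cells held 13752 to 26885 TPM of it and WT MK cells 12513 to 19619 TPM. The 10 megakaryocyte and platelet markers summed to 71.0 and 310.9 TPM in those 2 cells, the 8 granulocyte and monocyte markers to 1036.2 and 2216.4 TPM, the 6 lymphoid markers to 37.0 and 1173.4 TPM (Cd3e and Cd79a at 0), the 9 stem and progenitor markers to 1430.2 and 565.1 TPM, and the 6 dendritic markers to 0 in both. The other 3 KO MK cells held 265.2 to 436.0 TPM of the stem and progenitor markers and 274.2 to 736.9 TPM of the granulocyte and monocyte markers. In NMK cells the granulocyte and monocyte sum had a median of 910.2 TPM in WT and 523.4 TPM in KO. Its highest values there were 1979.5 and 1333.3 TPM. The comparisons between groups are given with and without these 4 cells, and single-gene medians are given both ways where the 2 KO NMK cells move them by more than 1.5 times. The B1 name prefix was absent from 9 of 9 WT NMK, 5 of 6 WT MK, 8 of 13 KO NMK and 3 of 5 KO MK libraries. Prefix and genotype are thus partly confounded. The 5 WT MK libraries whose names lack the B1 prefix resembled each other more than cells of any other group did (Pearson r of 0.961 to 0.973 across genes). The labels do not say whether they came from separate animals, and whether they are independent cells was not tested. The small SDs of WT MK cells carry that doubt. The Runx1 mean was 12.4 TPM for WT MK and 22.5 TPM for KO MK cells, but the table does not resolve exons, so it cannot check the deletion.

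Most of the list was quiet. Ifitm3, a membrane protein that blocks fusion of viruses with endosomes, averaged 2240 TPM over the 33 cells and alone made up 60.0% of the summed TPM of the list. Psmb8, a catalytic subunit of the immunoproteasome, added 15.6% with a mean of 581 TPM. Only 5 genes averaged 100 TPM or more (Ifitm3, Psmb8, Psmb9, Bst2 and Igtp), 35 averaged 1 TPM or more, and 7 reached 1 TPM in 3 cells or fewer. A set of 8 antiviral genes was gathered because their values were seen to be low (Ifit1, Ifit3, Isg15, Oas2, Oas3, Oasl1, Mx1 and Mx2), so their low level is a description and does not stand for the type I response, whose other genes on the list, such as Usp18 and Oas1a, were higher. The 8 summed to at most 2.6 TPM in any WT NMK cell and at most 2.2 TPM in any WT MK cell. In KO NMK cells that sum had a median of 0.2 TPM and reached 38.1 TPM in cell 5B and 24.3 TPM in cell 1. In KO MK cells it was 0.2, 2.7 and 3.2 TPM in cells 1A, 1B and B1-3, and 17.3 and 95.5 TPM in the low-Pf4 cells 2 and B1-4. Mx1, whose promoter drives the Cre transgene, did not reach 1 TPM in any of the 33 cells, and Oasl1 was listed at 0 in all of them.

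**Figure D1:**
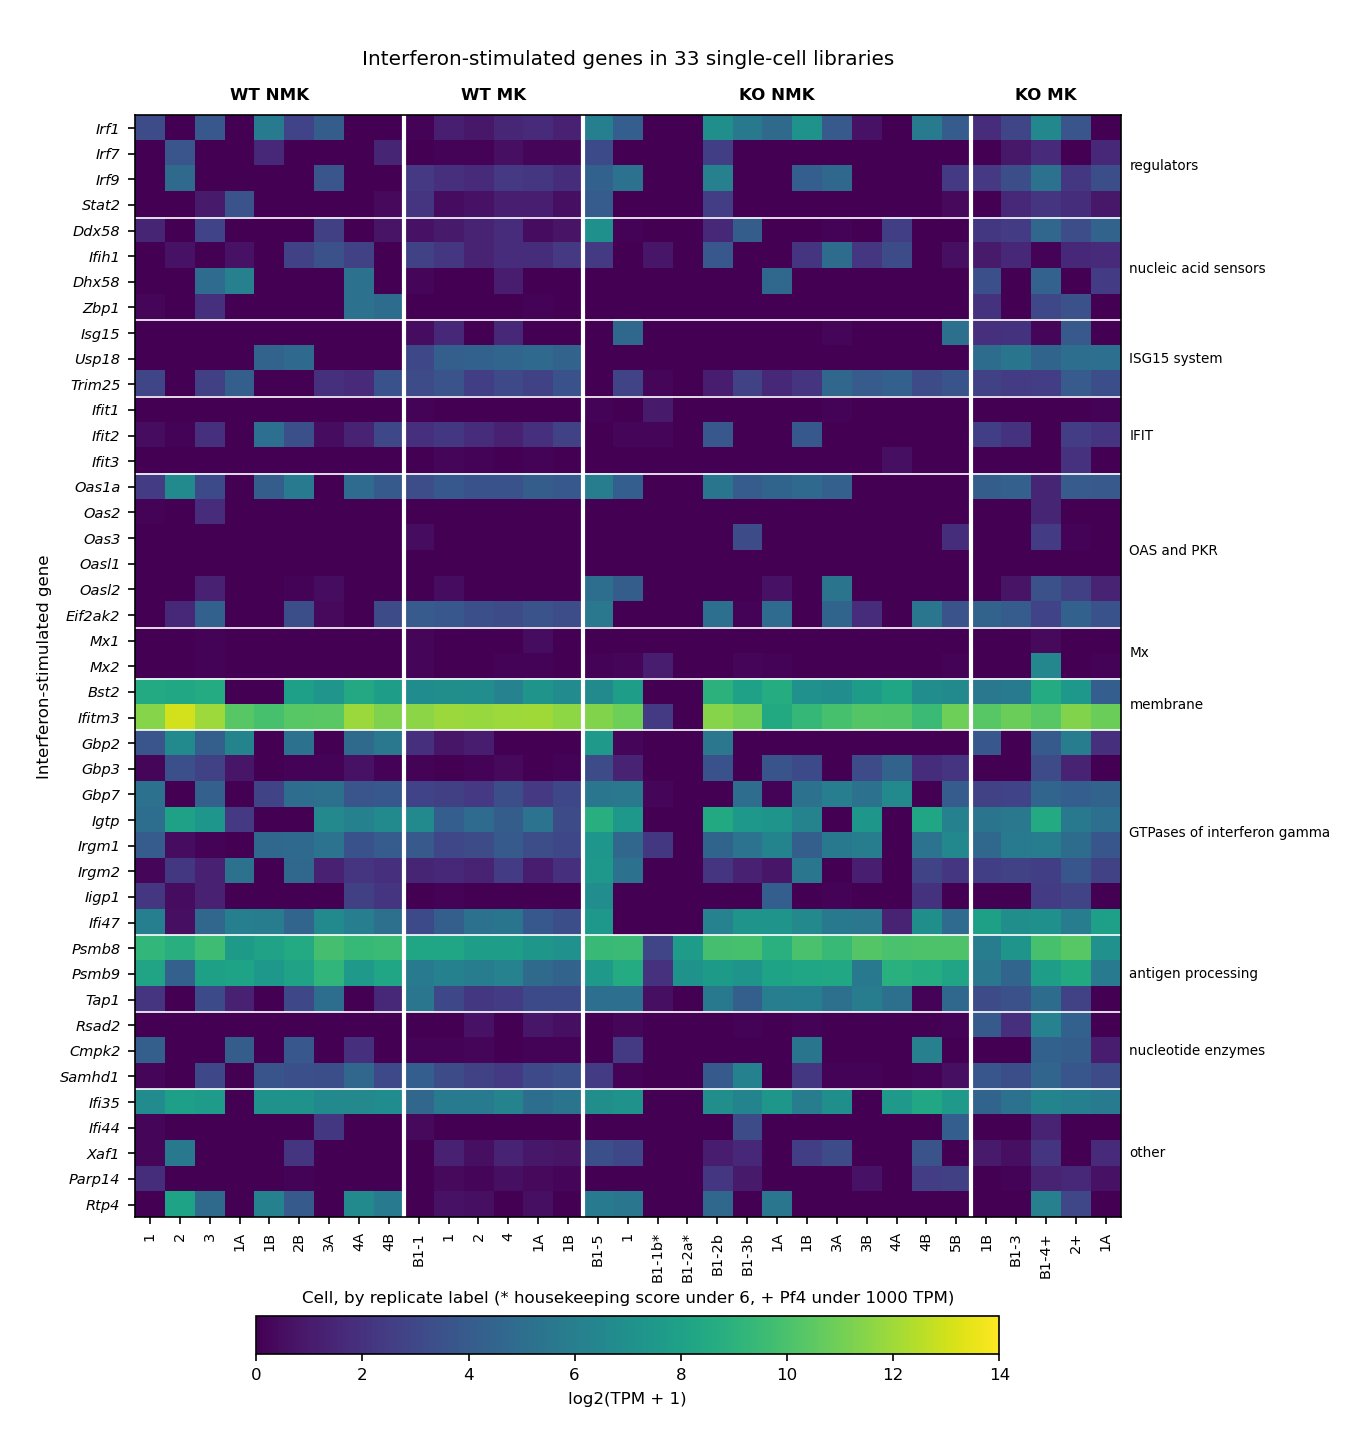
Heat map of log2(TPM + 1) for the 43 genes (rows, by role) in 33 cells (columns, by group). Ifitm3, Psmb8 and Psmb9 stand out in nearly every cell, most other rows are patchy, and the KO NMK cells B1-1b and B1-2a (star) are nearly blank.

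An interferon score, the mean log2(TPM + 1) over all 43 genes, placed the KO MK cells highest. The lowest, median and highest scores were 1.94, 2.08 and 2.16 in WT MK and 1.56, 2.25 and 2.62 in WT NMK cells. In KO NMK cells they were 0.32, 2.41 and 3.64. The KO MK cells scored 2.34, 2.35, 2.43, 3.32 and 3.86, and the upper 2 of these are the low-Pf4 cells. All 5 KO MK cells scored above all 6 WT MK cells, at a mean difference of 0.79 (pooled SD 0.47), and the 3 Pf4-high cells did so too, by 0.31 (pooled SD 0.08). WT MK cells were the most uniform (2.07 ± 0.09, SD, n = 6) and lay inside the range of WT NMK cells (2.22 ± 0.35, n = 9), a difference of -0.15. KO NMK cells (2.15 ± 0.94, n = 13) spread over the whole range of WT NMK cells, with a difference of -0.07 that became 0.26 without the 2 low-housekeeping cells. The KO MK score was 0.71 above that of KO NMK cells (pooled SD 0.89), and the difference was -0.11 once the low-housekeeping and low-Pf4 cells were left out. Among the 11 KO NMK cells with sound housekeeping levels the score was higher where more genes were detected (Spearman rho of 0.66), and among the 9 WT NMK cells rho was 0.55. These are descriptions over cells of a group, and depth in the score was not tested further.

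**Figure D2:**
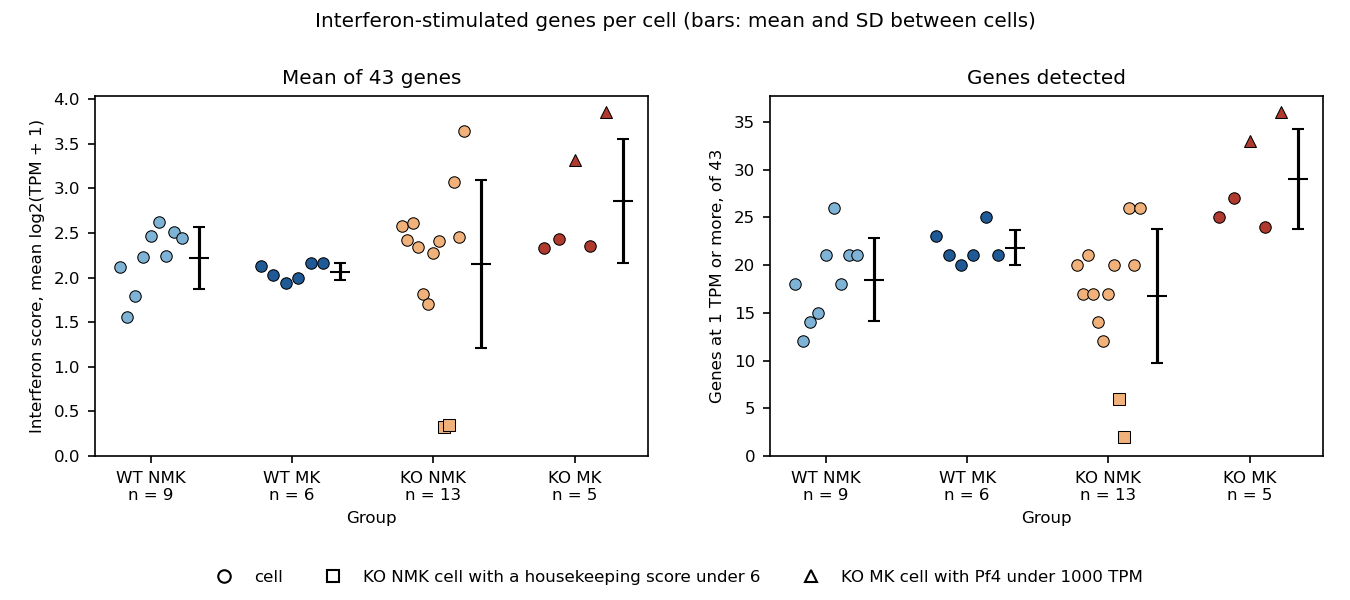
Interferon score and number of the 43 genes at 1 TPM or more in each cell, by group, with the mean and SD between cells. The WT MK cells lie close together at 1.94 to 2.16, and the 5 KO MK cells lie above them at 2.34 to 3.86.

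The number of listed genes at 1 TPM or more per cell was 20 to 25 (median 21) in WT MK, 12 to 26 (median 18) in WT NMK, 2 to 26 (median 17) in KO NMK and 24 to 36 (median 27) in KO MK cells. The Pf4-high KO MK cells had 24, 25 and 27 of the genes, which touches the upper end of WT MK. At 10 TPM or more the order was different: the median was 15 genes in KO NMK cells (16 without the low-housekeeping cells), 14 in KO MK (13 without the low-Pf4 cells), 13 in WT NMK and 10 in WT MK cells.

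Among the regulators, Irf1, a transcription factor induced most strongly by interferon gamma, was low in WT MK cells at 0.1, 1.35 and 2.3 TPM (lowest, median, highest). It was 0, 6.0 and 55.9 TPM in WT NMK and 0, 17.2 and 147.9 TPM in KO NMK cells, where the median was 27.8 TPM without the low-housekeeping cells. KO MK cells 1A, 1B, B1-3, 2 and B1-4 held 0, 2.4, 6.6, 11.9 and 91.1 TPM, so 1 KO MK cell lay below and 4 lay above every WT MK cell. Irf9, the DNA-binding subunit of the type I complex, was found at 1 TPM or more in every MK cell of either genotype but in only 2 of 9 WT NMK cells (22.2%, exact Clopper-Pearson 95% interval 2.8% to 60.0%) and 6 of 13 KO NMK cells (46.2%, 19.2% to 74.9%), or 6 of 11 without the low-housekeeping cells. Such intervals reflect counting error alone. Irf9 ranged from 2.3 to 4.1 TPM in WT MK and from 3.8 to 37.5 TPM in KO MK cells, so the ranges overlapped slightly. Irf7 and Stat2 stayed under 16 TPM in every cell and passed the limit in no comparison.

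Among the sensors of viral nucleic acid, Ddx58 (RIG-I) separated the MK cells by genotype. It measured 0.4, 0.85 and 2.4 TPM (lowest, median, highest) in WT MK cells, and 20.8, 3.9, 4.4, 9.0 and 23.4 TPM in KO MK cells 1A, 1B, B1-3, 2 and B1-4. No KO MK cell fell within the WT MK range. In NMK cells Ddx58 was mostly at 0, with 129.3 TPM in the single KO NMK cell B1-5. Dhx58 (LGP2), which tunes RIG-I and MDA5 signalling, was bimodal: it was at 0 in most cells, at up to 68.0 TPM in 3 of 9 WT NMK cells, at 24.3 TPM in 1 KO NMK cell, and between 4.6 and 20.5 TPM in 3 of 5 KO MK cells. Zbp1, a sensor of Z-form nucleic acids, was listed at 0 in all 13 KO NMK cells and reached 1 TPM in 3 of 9 WT NMK and 3 of 5 KO MK cells. Ifih1 (MDA5) passed the limit in no comparison.

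In the ISG15 system the ubiquitin-like protein itself was scarce, while Usp18, the protease that removes ISG15 and also damps the type I receptor, followed the MK label. Usp18 was 7.2, 20.05 and 26.2 TPM (lowest, median, highest) in WT MK cells and 33, 30.2, 42.9, 32.1 and 22.1 TPM in KO MK cells 1A, 1B, B1-3, 2 and B1-4. It reached 1 TPM in only 2 of 9 WT NMK cells, at up to 26.2 TPM, and was listed at 0 in all 13 KO NMK cells, so the KO MK and KO NMK ranges did not overlap and no fold is given. Both low-Pf4 KO MK cells held Usp18 as well. Isg15 was listed at 0 in every WT NMK cell, reached at most 2.0 TPM in WT MK and 14.2 TPM in KO MK cells, and was 35.4 TPM in KO NMK cell 5B. Trim25, a ubiquitin ligase that activates RIG-I, was found in every MK cell at 4.5 to 15.4 TPM.

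The RNA-binding and RNA-sensing effectors differed in how evenly they were found. Oas1a, which makes the short oligoadenylates that activate RNase L, was held between 8.9 and 16.4 TPM in WT MK cells, while WT NMK cells ranged from 0 to 99.6 TPM around a similar median of 14.6 TPM. KO MK cells 1A, 1B, B1-3 and 2 held 14.3 to 18.8 TPM and B1-4 held 1.7 TPM. Eif2ak2 (PKR), a kinase that stops translation when it meets double-stranded RNA, was 8.7, 10.3 and 15.3 TPM in WT MK cells, with a median of 0.3 TPM in WT NMK cells. The KO NMK median was 2.4 TPM, or 11 TPM without the low-housekeeping cells, which is close to the MK level. In KO MK cells it ranged from 6.1 to 20.8 TPM. Ifit2, which binds viral RNA, was below 6 TPM in all MK cells and was found at 1 TPM or more in 5 of 9 WT NMK and 2 of 13 KO NMK cells. Oasl2 reached 1 TPM in no WT MK cell, in 1 of 9 WT NMK, 3 of 13 KO NMK and 3 of 5 KO MK cells. Mx2, which the annotation lists as a polymorphic pseudogene, was at 88.9 TPM in KO MK cell B1-4 and at 1.1 TPM or less in each of the other 32 cells.

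Of the membrane proteins, Ifitm3 was the most abundant gene and the only listed gene whose KO MK values all lay below the WT MK values. It measured 3070, 3779 and 4085 TPM (lowest, median, highest) in WT MK cells and 1879, 1334, 1828, 2592 and 1292 TPM in KO MK cells 1A, 1B, B1-3, 2 and B1-4. The low-Pf4 cells were the highest and the lowest of these 5. WT NMK cells held 971, 2488 and 8579.7 TPM, and KO NMK cells with sound housekeeping levels averaged 1499 ± 822.5 TPM (SD, n = 11). Bst2 (tetherin), which holds budding virus particles at the cell surface, was 73.2 to 152.5 TPM in WT MK cells, 17.4 to 55.4 TPM in the 3 Pf4-high KO MK cells and higher than every WT MK cell in the 2 low-Pf4 cells.

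The GTPases induced by interferon gamma attack the membranes around intracellular microbes. Of the 8, 6 (75%) were higher by 1 or more in KO MK than in WT MK cells, against 11.4% of all genes. None was lower, against 8.4% of all genes. Without the low-Pf4 cells 4 (50%) were higher, against 13.6%, and none was lower, against 8.37%. Gbp2 was found at 1 TPM or more in 7 of 9 WT NMK cells, with a median of 27.7 and a highest value of 104.6 TPM. It was at most 2.8 TPM in WT MK cells, and only 2 of 13 KO NMK cells held any 1 TPM or more, B1-5 at 182.5 TPM being the higher. KO MK cells 1A, 1B, B1-3, 2 and B1-4 held 2.9, 12.8, 0, 58.9 and 14.8 TPM. Gbp3, its neighbour on chromosome 3, had the other pattern: 9 of 13 KO NMK cells held 1 TPM or more, against 2 of 9 WT NMK cells and no WT MK cell. Paralogs as similar as these can share reads, so values of the Gbp, Irgm, Ifit and Oas genes are uncertain to that extent.

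Ifi47, an immunity-related GTPase, showed the clearest genotype difference of the family. WT MK cells held 8.0, 15.6 and 42 TPM (lowest, median, highest), and KO MK cells 1A, 1B, B1-3, 2 and B1-4 held 237.3, 245.6, 124.0, 60.6 and 127.7 TPM. The 2 ranges did not touch, and the Pf4-high cells held 2 of the 3 highest values. NMK cells of both genotypes spread widely, from 0.5 to 99.7 TPM in WT and from 0 to 174.3 TPM in KO. Irgm2 also separated the MK genotypes at a lower level, 1.1 to 4.7 TPM in WT and 5.0 to 12.2 TPM in KO, and Irgm1 nearly did, at 7.0 to 14.5 TPM in WT and 12.2 to 59.6 TPM in KO. Igtp, whose promoter stretch is almost that of Irgm2, was 33 to 49.6 TPM in 4 KO MK cells and 375.5 TPM in B1-4, against 8.1 to 103.5 TPM in WT MK cells. The gene models of Igtp (chr11:58199556-58207591) and Irgm2 (chr11:58199618-58222782) overlap on the same strand. Over the 31 cells with sound housekeeping levels the Spearman rho was 0.26 for Igtp with Irgm2, 0.38 for Igtp with Irgm1 and 0.53 for Irgm1 with Ifi47, which are descriptions over points that share library and depth.

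Among the genes of antigen processing, the proteasome subunits followed the cell label and Tap1 did not. Psmb8 and Psmb9 encode inducible proteasome subunits that cut peptides for display, and Tap1 is part of the pump that carries those peptides to class I molecules. Psmb8 was 193.3, 616.4 and 918.8 TPM (lowest, median, highest) in WT NMK and 136.5, 225.8 and 299.8 TPM in WT MK cells. KO NMK cells had a median of 940.2 TPM, and KO MK cells 1A, 1B, B1-3, 2 and B1-4 held 132.0, 58.0, 149.1, 1329 and 963.0 TPM. The Pf4-high KO MK cells thus lay near or below the low end of WT MK, and the low-Pf4 cells were high, cell 2 being the highest of all 33. Psmb9 was also lower in WT MK cells, with medians of 265.0 TPM in WT NMK, 57.3 TPM in WT MK and 277.5 TPM in KO NMK cells. The Pf4-high KO MK cells held 22.9 to 50.7 TPM of Psmb9, within the WT MK range of 20.8 to 73.1 TPM, and the low-Pf4 cells held 216.7 and 361.0 TPM. The 2 genes were the most alike of any pair among the 19 listed genes compared (Spearman rho 0.64, Pearson r 0.68, 31 cells), against a median rho of 0.07 over 171 pairs. Tap1 was highest in KO NMK cells (median 33.4 TPM) and had medians of 2.0 TPM in WT NMK and 7.4 TPM in WT MK cells. Psmb9 and Tap1 lie head to head on chromosome 17 and overlap (Psmb9 ends at 34187764 and Tap1 begins at 34187553), and whether the counting used strand is not stated.

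Of the enzymes that alter nucleotide pools, Rsad2 (viperin), which makes a chain-terminating nucleotide, reached 1 TPM in 4 of 5 KO MK cells and in no cell of any other group. It was listed at 0 in all 9 WT NMK cells and never exceeded 0.8 TPM in WT MK or 0.2 TPM in KO NMK cells. KO MK cells 1A, 1B, B1-3, 2 and B1-4 held 0, 14.8, 2.9, 19.5 and 72.1 TPM. With KO MK cell 1A at 0, the groups overlap. Cmpk2, a mitochondrial nucleotide kinase whose gene adjoins Rsad2 (chr12:26442746-26479837 covers both), had part of this pattern. It reached 1 TPM in no WT MK cell and in 3 of 5 KO MK cells, at 16.4 and 19.2 TPM in the low-Pf4 cells 2 and B1-4 and at most 1.1 TPM in the others, while 4 of 9 WT NMK cells and 3 of 13 KO NMK cells reached 1 TPM. Samhd1, which degrades deoxynucleotides, was 4.3 to 16.9 TPM in WT MK and 8.1 to 22.7 TPM in KO MK cells and had a median of 0.1 TPM in KO NMK cells.

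Rtp4 is a chaperone of membrane receptors that also restricts viruses. It was 0, 27.3 and 273.9 TPM (lowest, median, highest) in WT NMK cells and at most 0.6 TPM in WT MK cells. Of the KO NMK cells, 4 of 13 reached 1 TPM, at up to 50.6 TPM, and the median was 0. It was listed at 0 in all 3 Pf4-high KO MK cells and at 7.0 and 68.7 TPM in the low-Pf4 cells 2 and B1-4. Ifi35, Ifi44, Xaf1 and Parp14 passed the limit in no comparison, and of these only Ifi35 was abundant, with medians from 46.45 TPM in WT MK to 120.9 TPM in KO NMK cells.

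**Figure D3:**
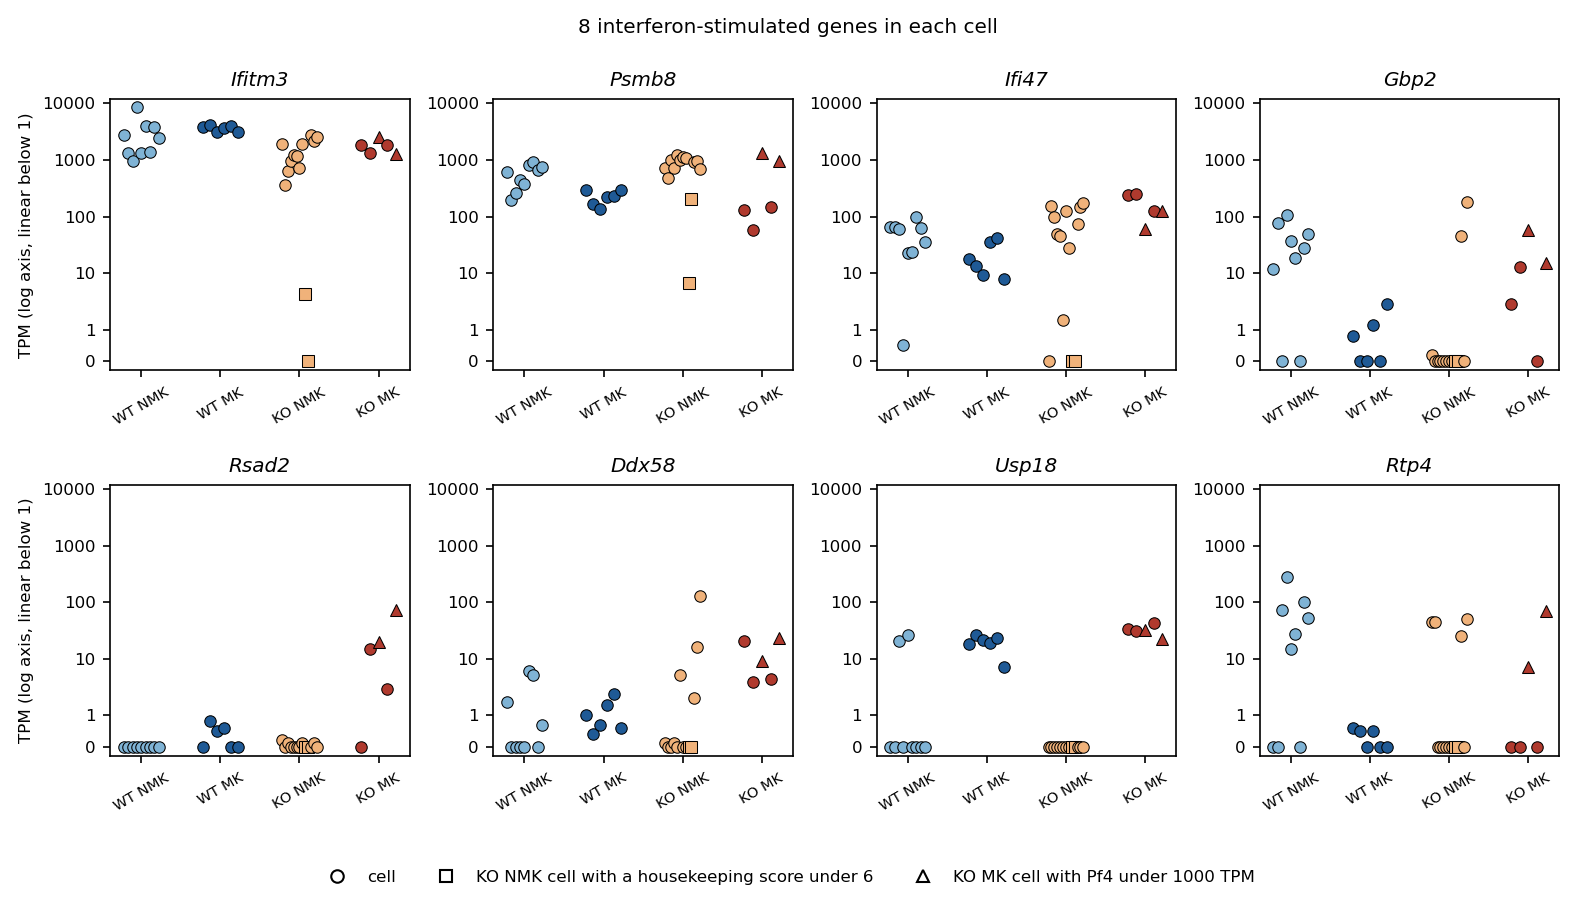
TPM of 8 listed genes in each cell by group, on a log axis that is linear below 1. Ifi47 and Ddx58 are higher in all 5 KO MK cells than in all 6 WT MK cells, Ifitm3 is lower, and Usp18 is found in every MK cell.

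WT MK and WT NMK cells differed in both directions. Usp18 was higher in MK cells by 3.21 (log2 difference, pooled SD 1.64), Eif2ak2 by 2.14 (1.39), Tap1 by 1.46 (1.53), Trim25 by 1.25 (1.28) and Irf9 by 1.11 (1.51). Lower in MK cells were Rtp4 at -3.63 (2.49), Gbp2 at -3.43 (2.02), Psmb9 at -2.11 (1.17), Dhx58 at -1.56 (2.15), Cmpk2 at -1.44 (1.55), Zbp1 at -1.34 (1.72), Psmb8 at -1.19 (0.66) and Irf1 at -1.08 (1.79). Thus 5 of 43 listed genes (11.6%) were higher by 1 or more, against 34.1% of the 12138 genes averaging 1 TPM or more, and 8 (18.6%) were lower, against 4.95%. The 12138 genes include only 35 of the 43. The median difference was 0.05 over the listed genes and 0.56 over all 12138. Of the 13 differences, 6 exceeded the pooled SD between cells (Usp18, Eif2ak2, Rtp4, Gbp2, Psmb9 and Psmb8). Irf1 came to -0.62 without WT NMK cell 1B, and Dhx58 to -1.03 without WT NMK cell 1A.

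KO MK cells held higher values than WT MK cells for much of the list. Rsad2 was higher in KO MK than in WT MK cells by 2.95 (log2 difference, pooled SD 1.61), Ifi47 by 2.94 (0.89), Gbp2 by 2.48 (1.61), Ddx58 by 2.42 (0.81) and Irgm1 by 1.61 (0.67). In all, 17 of 43 listed genes (39.5%) were higher by 1 or more, against 11.4% of all genes. Only Ifitm3 was lower, at -1.07 (0.30), or 1 of 43 (2.33%) against 8.4% of all genes. The median difference was 0.63 over the listed genes and 0.01 over all genes. Ifi47, Ddx58 and Irgm2 lay higher in all 5 KO MK cells than in all 6 WT MK cells, which 2.28% of all genes did, and Ifitm3 lay lower in all 5, which 1.68% of all genes did.

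That comparison rests in part on the 2 low-Pf4 KO MK cells. Without them 7 listed genes were higher (16.3%, against 13.6% of all genes) and 4 were lower (9.30%, against 8.37%), and the median difference was 0.22 against 0.05. The 7 were Ifi47 at 3.39, Ddx58 at 2.05, Dhx58 at 1.74, Rsad2 at 1.63, Irgm1 at 1.33, Gbp2 at 1.26 and Irgm2 at 1.05. The 4 were Bst2 at -1.59, Ifitm3 at -1.12, Psmb8 at -1.05 and Tap1 at -1.04. Of the other genes higher in the full comparison, Irf1 went from 1.86 to 0.44, Cmpk2 from 1.77 to 0.22, Zbp1 from 1.69 to 0.67, Oasl2 from 1.57 to 0.63, Igtp from 1.31 to 0.61, Irf9 from 1.25 to 0.95 and Isg15 from 1.02 to 0.71. Rtp4 went from 1.52 to -0.31, Mx2 from 1.24 to -0.04 and Iigp1 from 1.04 to -0.02. Leaving out B1-4 alone gave 11 higher genes. Ifitm3 came just inside the limit without KO MK cell 1B or without B1-4 (-0.96 in the latter case).

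**Figure D4:**
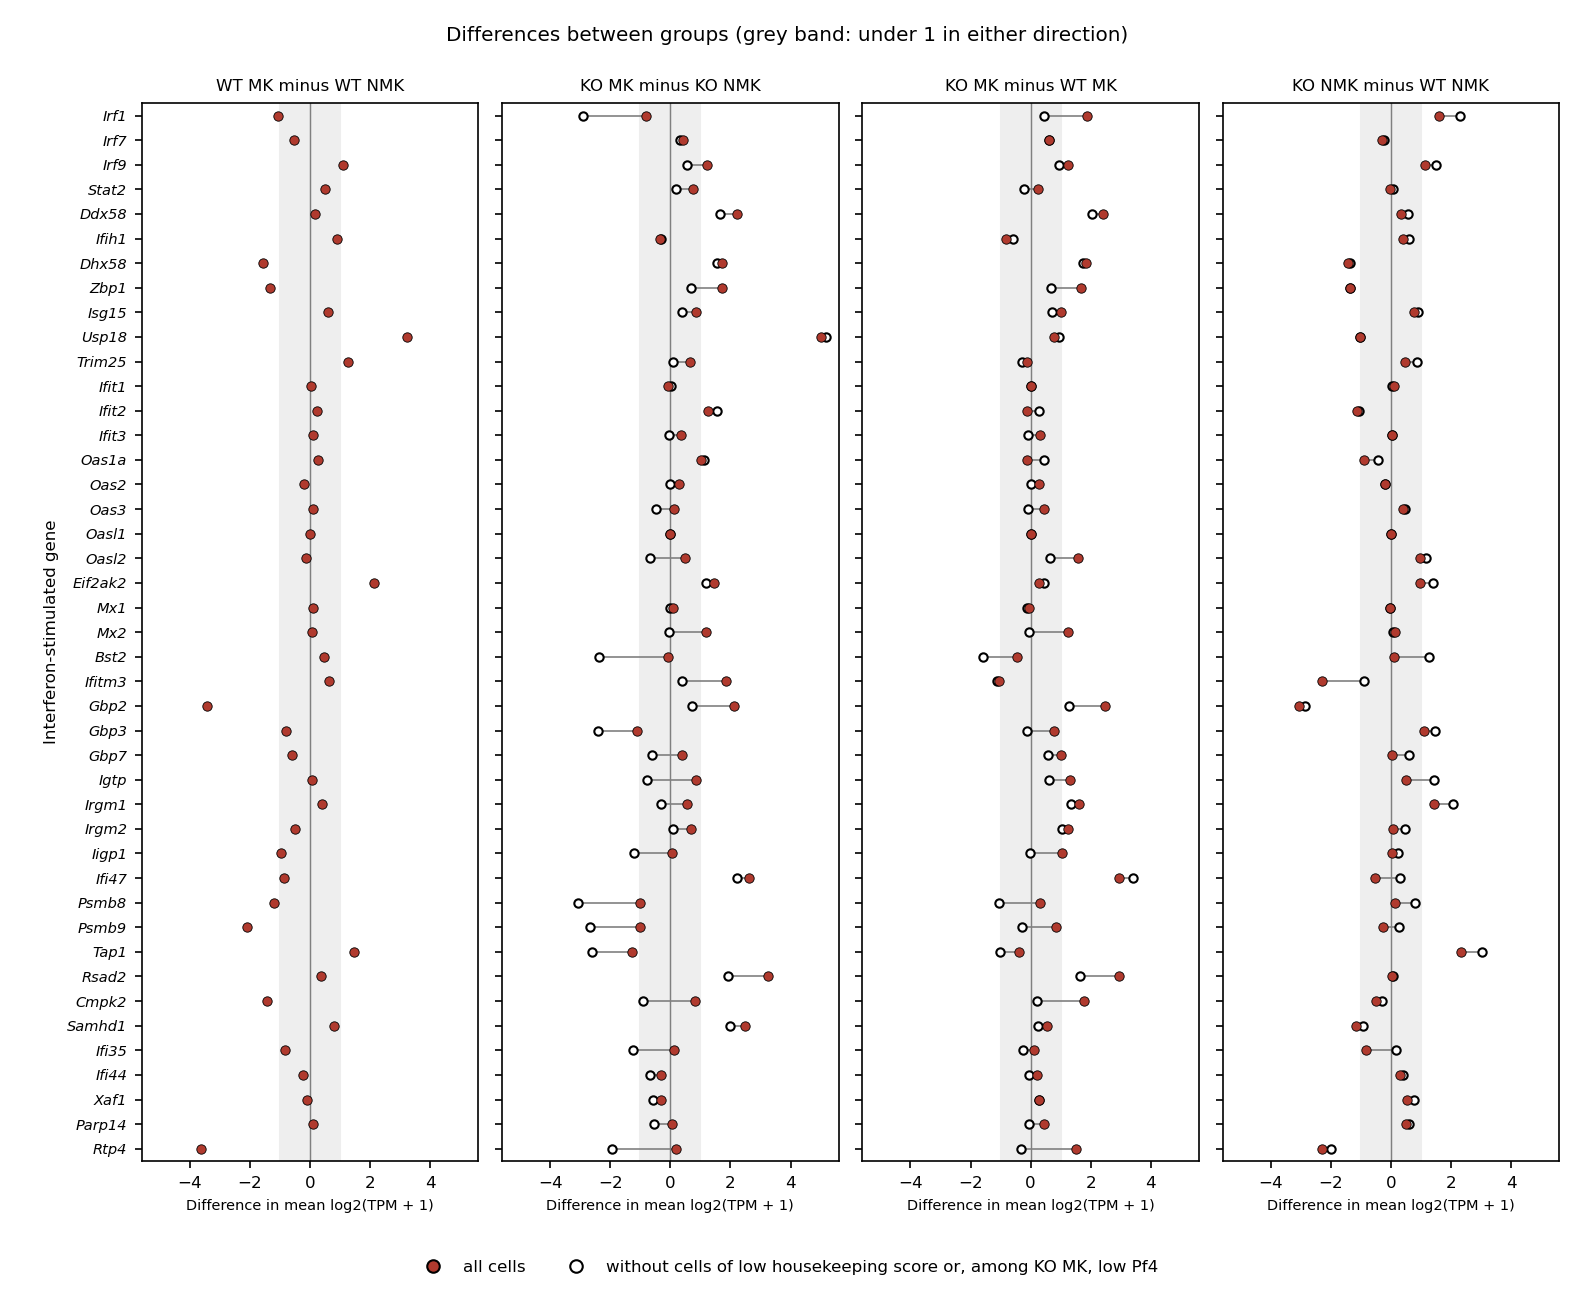
Difference in mean log2(TPM + 1) of each of the 43 genes in 4 comparisons, with all cells (filled) and without the low-housekeeping KO NMK and low-Pf4 KO MK cells (open). In KO MK minus WT MK, Ifi47, Ddx58 and Rsad2 stay to the right of the grey band with the open points, and Mx2 and Rtp4 move to 0 or below.

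Between the genotypes of NMK cells, listed genes differed in both directions. Tap1 was higher in KO NMK than in WT NMK cells by 2.34 (log2 difference, pooled SD 2.08), Irf1 by 1.596 (2.53), Irgm1 by 1.45 (2.27), Irf9 by 1.13 (2.26) and Gbp3 by 1.11 (1.49). Gbp2 was lower at -3.06 (2.49), Rtp4 at -2.29 (2.83), Ifitm3 at -2.29 (2.83), Dhx58 at -1.44 (1.99), and Samhd1 and Ifit2 each at -1.14. Zbp1 and Usp18, which were listed at 0 in every KO NMK cell, also passed the limit downward. That is 5 of 43 genes higher (11.6%), against 13.5% of all genes, and 8 of 43 lower (18.6%), against 14.1%. Only Tap1 and Gbp2 differed by more than the pooled SD, and no listed gene had ranges that did not overlap. Without the 2 low-housekeeping KO NMK cells, Tap1 was higher by 3.04, Irf1 by 2.29 and Irgm1 by 2.05, and Oasl2, Eif2ak2, Bst2 and Igtp also passed the limit, giving 9 higher (20.9%, against 23.2% of all genes) and 6 lower (14.0%, against 7.36%). Ifitm3 came to -0.88 and Samhd1 to -0.92. Irf9 came to 0.79 without KO NMK cell B1-2b, Dhx58 to -0.90 without WT NMK cell 1A, and the count of lower genes to 5 without WT NMK cell 1B.

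Between the KO cell types, Usp18 set the MK cells apart, being present in all 5 KO MK and listed at 0 in all 13 KO NMK cells. Over all genes, 0.297% had every KO MK cell above every KO NMK cell. Rsad2 was higher in KO MK cells by 3.25 (log2 difference, pooled SD 1.19), Ifi47 by 2.602 (2.66), Samhd1 by 2.49 (1.71), Ddx58 by 2.22 (1.96) and Gbp2 by 2.10 (2.42). Tap1 was lower at -1.27 (2.18) and Gbp3 at -1.12 (1.57). Counted by the limit, 14 of 43 genes were higher (32.6%), against 35.9% of all genes, and 2 were lower (4.65%), against 4.22%. Without the low-housekeeping and low-Pf4 cells, 9 were higher (20.9%, against 28.4% of all genes) and 9 lower (20.9%, against 9.39%). Rsad2 was then higher by 1.92, Ifi47 by 2.22, Samhd1 by 1.97 and Ddx58 by 1.64, and the lower genes then included Psmb8 at -3.06, Irf1 at -2.92, Psmb9 at -2.66, Tap1 at -2.62, Gbp3 at -2.40 and Bst2 at -2.38. Single cells mattered here: Mx2 came to -0.12 without KO MK cell B1-4, Irf9 to 0.75 without the same cell, Tap1 to -0.55 without KO MK cell 1A, and Ifitm3 to 1.11 without KO NMK cell B1-2a. WT NMK and KO NMK, and likewise each MK group, enter several of these comparisons, so the comparisons share cells.

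Upstream of the list, the 8 interferon genes looked at (Ifnb1, Ifna1, Ifna2, Ifna4, Ifng, Ifnk, Ifnl2 and Ifnl3) were at or near 0. Their highest value anywhere was 1.7 TPM of Ifnb1 in 1 WT MK cell. Other interferon genes were not examined. The receptors were present. Ifnar2, a chain of the type I receptor, was 5.0 to 7.2 TPM in WT MK and 8.8 to 53.7 TPM in KO MK cells. The ranges did not overlap, and 2.28% of all genes likewise had every KO MK cell above every WT MK cell. The log2 difference of Ifnar2 was 1.54, and 0.64 in the Pf4-high cells. Ifngr1 and Ifngr2, the chains of the interferon gamma receptor, were higher in KO MK cells by 1.44 (0.55 in the Pf4-high cells) and 1.59 (1.91). Over all 29 pathway genes that are not on the list, 5 were higher (17.2%, against 11.4% of all genes) and 1 lower (3.45%, against 8.4%) in KO MK than in WT MK cells. Without the low-Pf4 cells 2 were higher (6.90%, against 13.6% of all genes) and none lower (against 8.37%). For WT MK against WT NMK the pathway counts were 2 higher (6.90%, against 34.1% of all genes) and 4 lower (13.8%, against 4.95%). For KO MK against KO NMK they were 3 higher (10.3%, against 35.9%) and 0 lower (against 4.22%), or 3 (10.3%, against 28.4%) and 2 (6.90%, against 9.39%) without the low-housekeeping and low-Pf4 cells. For KO NMK against WT NMK they were 2 higher (6.90%, against 13.5%) and 0 lower (against 14.1%), or 5 (17.2%, against 23.2%) and 0 (against 7.36%) without the low-housekeeping cells.

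Of 40 further interferon-induced genes outside the list, comparing WT MK with WT NMK cells gave 1 higher (2.5%, against 34.1% of all genes) and 11 lower (27.5%, against 4.95%). Ly6a, the stem cell antigen Sca-1, had a median of 328.1 TPM in WT NMK and at most 1.1 TPM in WT MK cells (log2 difference -7.19, pooled SD 2.22), and Tgtp1, another immunity-related GTPase, was 31.5 to 180.0 TPM in WT NMK and 3.3 to 9.6 TPM in WT MK cells. Against WT MK cells, KO MK cells had 15 higher (37.5%, against 11.4% of all genes) and 0 lower (against 8.4%). Without the low-Pf4 cells 7 were higher (17.5%, against 13.6%) and 2 lower (5%, against 8.37%). For KO NMK against WT NMK the counts were 6 higher (15%, against 13.5%) and 7 lower (17.5%, against 14.1%), or 9 (22.5%, against 23.2%) and 2 (5%, against 7.36%) without the low-housekeeping cells. For KO MK against KO NMK 9 were higher (22.5%, against 35.9%) and 3 lower (7.5%, against 4.22%). Without the low-housekeeping and low-Pf4 cells that became 2 higher (5%, against 28.4%) and 12 lower (30%, against 9.39%).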

How the data were processed

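The deposited table holds TPM per gene for single-cell SMART-Seq libraries, with the authors' outlier libraries already removed. Per the submitters' processing notes, the tools were STAR 2.6.1e, featureCounts 1.6.2, cutadapt 1.9.1 and FastQC 0.11.7, and the build was mm10. How TPM was computed, from which annotation, and how outliers were defined is not given in the sources used here. The number of reads per library is unknown, so no interval was set on a TPM value.

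Columns were matched to samples by title. The table's 1 column of no sample was not used, and 44 labelled samples are not analysed here. Values were taken as log2(TPM + 1), with a pseudocount of 1, in Python 3.11.15 with numpy 2.4.6, pandas 2.3.3 and scipy 1.17.1, and figures were drawn with matplotlib 3.10.9. Since a group is 1 sample, no test was run: a gene was counted when the group means differed by 1 or more, beside the same share of the 12138 genes that averaged at least 1 TPM across the 33 libraries. The error rate of this counting was not tested. The genes given value by value averaged at least 10 TPM within some group and had a difference of 1 or more in a comparison, and the other genes are given by range and counts. The members and the lists were chosen with earlier results of these data known. Alternatives changed the pseudocount, the scaling, the filter, the table and the cells used. Leaving out MK libraries with Pf4 under 1000 TPM was chosen after seeing the data.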

Additional observations from a re-analysis of the deposited data

Results flagged for a closer look

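In groups of 4 to 10 cells, a value was singled out when it lay too far from its nearest neighbour. The limit was Dixon's 95% critical value for the share of the group's range that this gap takes up. For normally distributed values chance passes that limit in about 1 in 20 groups. Many values here are 0, so that rate need not hold and no expected count is given. KO NMK, with more than 10 cells, was not examined. Of 62 groups of values examined, 9 were singled out, and all values here are log2(TPM + 1) unless TPM is written. KO MK cell B1-4, which has low Pf4, gave 3 of them: Mx2 at 6.49 and Igtp at 8.56, both far above the other 4 KO MK cells, and Oas1a at 1.43, far below them. WT MK cell B1-1 gave Usp18 at 3.04, below the other 5 WT MK cells, and Tap1 at 5.49, above them. Dhx58 was 1.14 in WT MK cell 4, above the other 5. In WT NMK cell 2, which holds the highest Ifitm3, Rtp4 and Oas1a values of all 33 cells, Ifi47 was 0.58 and Psmb9 was 4.27, both below the other 8 cells. Mx2 at 0.14 in WT NMK cell 3 rests on 0.1 TPM.

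The fuller table also holds libraries that the authors left out as outliers, and the 8 genes Ifit1, Ifit3, Isg15, Oas2, Oas3, Oasl1, Mx1 and Mx2 were above the WT level in 3 of them. Their summed level was 17.8 TPM in KO NMK library B1-1a, 12.1 TPM in KO MK library B1-1 and 30.5 TPM in KO MK library 1, against at most 5.9 TPM in any WT library of that table.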

How the results depend on the processing

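No paired analysis was possible because no result comes from a test and the replicate numbers name cells, not pairs. Leave-one-out gave these ranges. The score difference was -0.23 to -0.10 for WT MK minus WT NMK, 0.46 to 0.84 for KO MK minus KO NMK, 0.54 to 0.92 for KO MK minus WT MK, and -0.19 to 0.09 for KO NMK minus WT NMK, the last without a fixed sign. Genes higher and lower numbered 4 to 6 and 7 to 11, 13 to 17 and 0 to 5, 11 to 19 and 0 to 1, and 4 to 7 and 5 to 10, in the same order. The cause of a change was not tested.

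For the interferon score, WT MK minus WT NMK, the value was -0.74 in the full table, 0.26 with a pseudocount of 0.1 and -0.84 as a log2 ratio of mean TPM. Genes higher (5) were 1 in the full table, 14 with 0.1, 1 with a pseudocount of 10 and 2 by ratio, and genes lower (8) were 16 in the full table, 5 with 10 and 18 by ratio.

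For KO MK minus KO NMK, genes higher (14) were 7 in the full table, 24 with 0.1, 4 with 10, 6 by ratio and 9 without low-housekeeping and low-Pf4 cells. Genes lower (2) were 6 in the full table, 1 with 10, 7 by ratio, 6 without low-housekeeping cells, 8 without low-Pf4 cells, 9 without both, 4 rescaled without ribosomal genes, 1 with median-ratio rescaling, 6 without B1 cells and 0 with B1 cells only. Reversed here were Irf9 at -0.13 in the full table and -0.035 by ratio, Oas1a at -0.20 by ratio and -0.21 with B1 cells, Eif2ak2 at -0.022 by ratio, and Gbp2 at -0.62 and Tap1 at 1.07 with B1 cells. Mx2 was -0.12 without KO MK cell B1-4, -0.021 without B1 cells, -0.11 without low-Pf4 cells, -0.039 without both, and 1.502 at the most (without KO MK cell 1B).

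For KO MK minus WT MK the score was 0.31 without low-Pf4 cells. Genes higher (17) were 5 with 10 and 7 without low-Pf4 cells. Genes lower (1) were 0 in the full table, 2 with 0.1, 0 with median-ratio rescaling, 2 without B1 cells, 2 with the 5 unprefixed WT MK libraries averaged as 1, and 4 without low-Pf4 cells. Reversed were Ifitm3 at 0.99 in the full table, Rtp4 at -0.31 without low-Pf4 cells, and Mx2 at -0.055 without B1-4 (1.57 without 1B), -0.0092 without B1 cells and -0.044 without low-Pf4 cells. Median-ratio rescaling moved the median of all genes from 0.01 to 0.12.

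For KO NMK minus WT NMK, genes higher (5) were 10 with 0.1, 1 with 10, 12 by ratio, 9 without low-housekeeping cells and 10 without B1 cells, and genes lower (8) were 3 with 10. At 10 TPM in place of 1, the median number of genes found was 13 in place of 18 in WT NMK, 10 in place of 21 in WT MK, 15 in place of 17 in KO NMK and 14 in place of 27 in KO MK cells, so KO NMK and not KO MK was then highest.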

Other observations

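The cell that held the most top values of the list was an NMK cell. KO NMK cell B1-5, singled out after its values were seen, held the highest value of 8 listed genes: Stat2 at 15.8 TPM, Ddx58 at 129.3, Eif2ak2 at 48.6, Gbp2 at 182.5, Igtp at 439.6, Irgm1 at 162.6, Irgm2 at 176.4 and Iigp1 at 114.2 TPM. All 8 GTPases of the list reached 1 TPM there and summed to 1301.8 TPM, against a median of 284.8 TPM in KO NMK, 192.1 TPM in WT NMK, 73.6 TPM in WT MK and 312.1 TPM in KO MK cells (235.8 to 617.8 TPM). The 8 antiviral genes gathered for their low values (Ifit1, Ifit3, Isg15, Oas2, Oas3, Oasl1, Mx1 and Mx2) summed to 0.2 TPM in the same cell. Its dendritic markers summed to 174.2 TPM, from 1 of the 6 genes, and their part in the pattern was not tested.

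In KO NMK cells 5B and 1 the same 8 genes summed to 38.1 and 24.3 TPM, the highest among NMK cells, and the GTPases summed to 210.3 and 284.8 TPM. WT NMK cell 2 held the highest value of 5 listed genes (Irf7, Oas1a, Ifitm3, Xaf1 and Rtp4) while it held the lowest Ifi47 and Psmb9 values of its group.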
